A study of Mus musculus with 6 samples.

Results

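The mitochondrial carrier family Slc25 was examined in mouse HoxB8 neutrophil progenitors that expressed either K313-C/EBPα or WT-C/EBPα. Members were all probe sets whose annotated gene symbol was Slc25a followed by a number. The rule gave 46 probe sets for 46 genes, of 22206 probe sets on the array. Total RNA was hybridised to Affymetrix Mouse Clariom S arrays after 1 day in differentiation medium that contained SCF supernatant, a source of stem cell factor. There were 3 arrays of cells with the K313 form (K313), the leukaemia-associated mutation the series is about, and 3 arrays of cells with wild-type C/EBPα (WT). C/EBPα is the transcription factor that starts granulocyte formation, and both groups carry Hoxb8, which keeps such progenitors immature. The labels do not say whether the cells' own Cebpa gene was present, how many clones each group came from, or whether replicates were separate cultures, so the p-values below speak only of the variation among these arrays, part of which may be technical. They also give no batch or scan date, and whether the Cebpa and Hoxb8 probe sets see an introduced copy is not stated.

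Slc25 proteins sit in the inner mitochondrial membrane, with a few exceptions in the outer membrane and in peroxisomes, and exchange metabolites between the cytosol and the matrix. They carry ADP and ATP, phosphate, di- and tricarboxylates, amino acids, iron, glutathione and cofactors, so they link mitochondrial respiration and heme synthesis with cytosolic metabolism. In the blood system the family is best known for mitoferrin 1, Slc25a37, and the glycine carrier Slc25a38, both of which feed heme synthesis in red cell precursors.

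Values are log2 expression values, and each difference is K313 minus WT on the log2 scale with the standard error (SE) of a limma fit over all 22206 probe sets. Errors of group means are SD over the 3 arrays of the group. A gene was called when its Benjamini-Hochberg adjusted p from that fit was under 0.05. Most carriers did not pass this threshold. Of the 46 members, 2 were higher in K313 (Slc25a27 and Slc25a37) and 3 were lower (Slc25a23, Slc25a13 and Slc25a14). The 5 calls are 10.9% of the members, against 7.75% of all probe sets (3.77% higher and 3.97% lower). At an unadjusted p under 0.05 there were 10 members (21.7%), against 17.8% of all probe sets, the share beside which such counts below should be read. The median difference was 0.09 over the members and 0.02 over all probe sets. The 3 K313 values and the 3 WT values did not overlap in 9 members, 6 higher and 3 lower in K313 (19.6%), against 21.9% of all probe sets (11.0% higher and 10.9% lower). With a mean above 5 in at least 1 group, 14.3% of 35 members were called, against 13.9% of 11573 probe sets. The shares at an unadjusted p under 0.05 were then 25.7% and 28.0%, and those without overlap 25.7% and 31.0%. This filter is not independent of the difference, since a gene can pass through 1 group alone. Among the members 3 passed through K313 alone (Slc25a27, which was called, Slc25a29 and Slc25a42). Of all probe sets 459 passed through K313 alone and 295 through WT alone. Counts of calls in the gene lists below should be read beside 7.75%, or beside 13.9% for genes above that level.

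**Figure D1:**
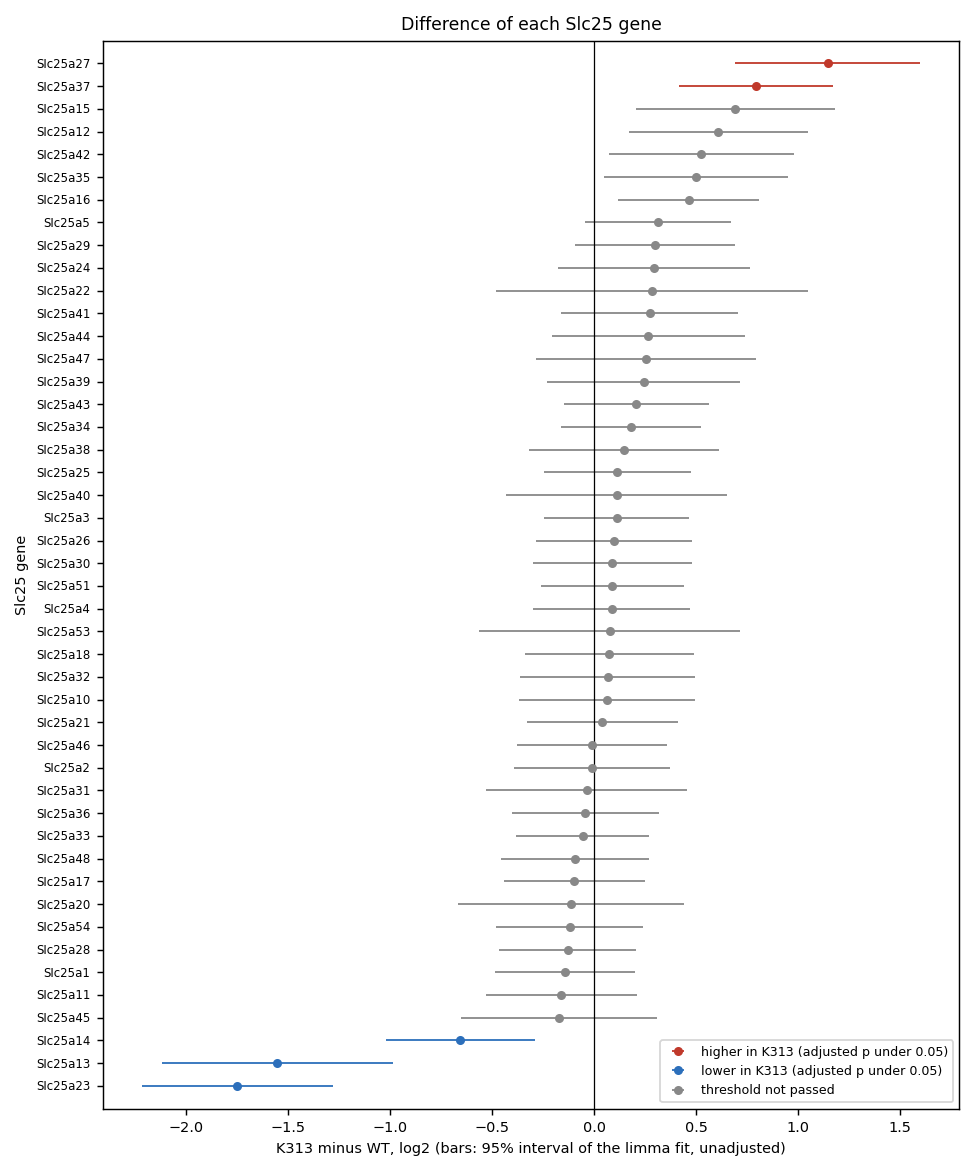
Difference of each of the 46 Slc25 genes, K313 minus WT on the log2 axis, with points for the fitted difference and bars for its unadjusted 95% interval. The 3 called falls and 2 called rises stand at the ends, between -1.75 and 1.15, and the 41 other genes lie between -0.17 and 0.69.

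Facts of the whole data set that bear on these values are few. Pearson correlations over all probe sets, which are not independent, were 0.995 to 0.996 between K313 arrays, 0.994 to 0.995 between WT arrays and 0.983 to 0.989 between the groups, with WT replicate 3 closest to K313 (0.987 to 0.989). The Cebpa transcript was not called (-0.51 ± 0.21, limma adjusted p = 0.212), while Hoxb8 was lower in K313 (-4.64 ± 0.25, adjusted p = 1.15e-06) and the Y-linked transcripts Eif2s3y, Uty and Kdm5d were higher (by 4.63 to 7.88), so the groups differed in more than the C/EBPα form and those parts cannot be told apart. WT replicate 3 stood apart on these transcripts, with Eif2s3y at 7.03 against 3.11 and 2.93 in the other WT arrays, while the K313 arrays read 12.37, 12.09 and 12.24. Without that array the differences of the called carriers were -1.92 for Slc25a23, -1.26 for Slc25a13, 1.32 for Slc25a27, 0.925 for Slc25a37 and -0.59 for Slc25a14, and the Slc25a14 call was lost. Of the neutrophil progenitor and granule markers, myeloperoxidase, Mpo, read 18.42 in K313 and 18.41 in WT, and the late granule genes Ltf and Camp stayed near 3 in both. Others of that list differed: Elane (3.29 ± 0.28), Ctsg (1.75 ± 0.16), Prtn3 (0.94 ± 0.17) and Ms4a3 (0.81 ± 0.18) were called higher in K313. Csf3r (-1.03 ± 0.22) was called lower, and Gfi1 and Cebpe were not called. The Ms4a3 call held in 9 of 14 alternatives. Levels of each marker list were also summed on the linear scale and given as log2, and these sums did not overlap between the groups. Neutrophil progenitor and granule markers (4 of 10 higher and 1 lower) reached 19.24 to 19.28 in K313 and 18.77 to 18.86 in WT. Monocyte and macrophage markers (1 of 6 higher, 2 lower) reached 11.65 to 12.29 in K313 and 11.07 to 11.51 in WT. Bright genes weigh most in such a sum, and dim ones add little. The brightest gene of the neutrophil list, Mpo, did not differ (0.00 ± 0.15). In the monocyte list the brightest was Ccr2, the 1 gene called higher (0.87 ± 0.23), while the median difference of the list was -0.20. Erythroid and megakaryocyte markers (1 of 7 higher, 3 lower) summed to 14.24 to 14.80 in K313 and 13.90 to 14.20 in WT, a sum carried by Tfrc (14.45 in K313, 13.73 in WT), while the median difference of the list was -0.47. Basophil and mast cell markers (1 of 8 higher, 3 lower) summed to 17.13 to 17.33 in K313 and 17.67 to 17.91 in WT. Their brightest gene, Cpa3, was high in both groups (16.83 in K313, 17.24 in WT) and was not called. The 1 higher gene was Prss34 (3.98 ± 0.21), and the lower ones were Cd200r3 (-4.03 ± 0.23), Mcpt8 (-1.63 ± 0.22) and Gata2 (-1.47 ± 0.19). Lymphocyte markers (0 of 6 higher, 4 lower) summed to 7.73 to 7.94 in K313 and 9.97 to 10.58 in WT. In RNA from whole cultures, fewer cells of a type and less RNA per cell cannot be told apart, and the part of these shifts in the carrier values was not tested.

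Promoter sequence is shown for the carriers with the largest differences, Slc25a23 and Slc25a13, both lower in K313. The choice of the second was made after its values were seen. Each window runs from 250 bases before to 50 bases after an annotated start and comes from RefSeq (build GRCm38.p6). Slc25a23 lies on the minus strand at chr17:57059814-57060113 and Slc25a13 on the minus strand at chr6:6217124-6217423, each printed 5′ to 3′ in the direction of the gene. Capitals mark matches, on either strand, to the C/EBP half-site pair TTGCNNAA, the CCAAT box CCAAT, the E-box CACGTG or the GATA sequence AGATAA, none of which overlap here.
Slc25a23: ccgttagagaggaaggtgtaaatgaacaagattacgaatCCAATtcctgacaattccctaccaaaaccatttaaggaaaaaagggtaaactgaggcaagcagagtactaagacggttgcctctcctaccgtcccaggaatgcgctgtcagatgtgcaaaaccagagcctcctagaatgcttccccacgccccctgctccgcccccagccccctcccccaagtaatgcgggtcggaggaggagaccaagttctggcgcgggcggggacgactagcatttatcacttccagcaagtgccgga
Slc25a13: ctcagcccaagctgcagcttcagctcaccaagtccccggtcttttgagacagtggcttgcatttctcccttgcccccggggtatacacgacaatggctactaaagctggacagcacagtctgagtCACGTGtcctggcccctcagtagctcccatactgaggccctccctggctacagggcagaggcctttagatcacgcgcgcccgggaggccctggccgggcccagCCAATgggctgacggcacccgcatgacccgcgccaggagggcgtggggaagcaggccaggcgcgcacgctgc
The Slc25a23 window held 1 CCAAT box, beginning at base 40, and the Slc25a13 window held an E-box at base 126 and a CCAAT box at base 229. Neither held a match to TTGCNNAA. In the window of Slc25a12, the close relative of Slc25a13, 1 match to TTGCNNAA began at base 97. Promoter windows were matched for 36 of the 46 members (46 windows, since some genes have several starts). CCAAT was in 47.8% of these windows and in 37.4% of all 32851 windows, CACGTG in 17.4% and 7.15%, TTGCNNAA in 6.52% and 10.8%, and AGATAA in 6.52% and 11.2%. The median GC content was 59.3% in the carrier windows and 52.7% in all windows. A match is a stretch of letters, not a bound site.

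The highest levels in the family belonged to carriers of energy metabolism. Slc25a5, the ADP/ATP carrier of dividing cells (Ant2), read 16.93, 17.11 and 17.22 in the K313 arrays and 16.90, 16.59 and 16.83 in the WT arrays. Its values did not overlap, but the difference of 0.31 ± 0.16 was not called (adjusted p = 0.364). Slc25a3, the phosphate carrier that supplies ATP synthase, read 15.41, 15.68 and 15.64 in K313 and 15.61, 15.49 and 15.30 in WT. Slc25a4, the ADP/ATP carrier best known from heart and muscle (Ant1), read 15.14, 15.20 and 15.27 in K313 and 15.26, 14.80 and 15.29 in WT. Both overlapped between the groups, with differences of 0.11 ± 0.16 and 0.09 ± 0.17 and 95% intervals from -0.25 to 0.47 and from -0.30 to 0.47. The germ cell form Slc25a31 stayed near the low end (3.15 in K313, 3.18 in WT). Levels of different genes come from different probes, so the order of genes on this scale is a rough one, and close relatives such as Slc25a4 and Slc25a5 may share signal. The mean level of a member lay anywhere from 2.60 (Slc25a48) to 16.93 (Slc25a5), and 11 members were at a mean of at most 5 in both groups, a range that could not be told from background here.

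**Figure D2:**
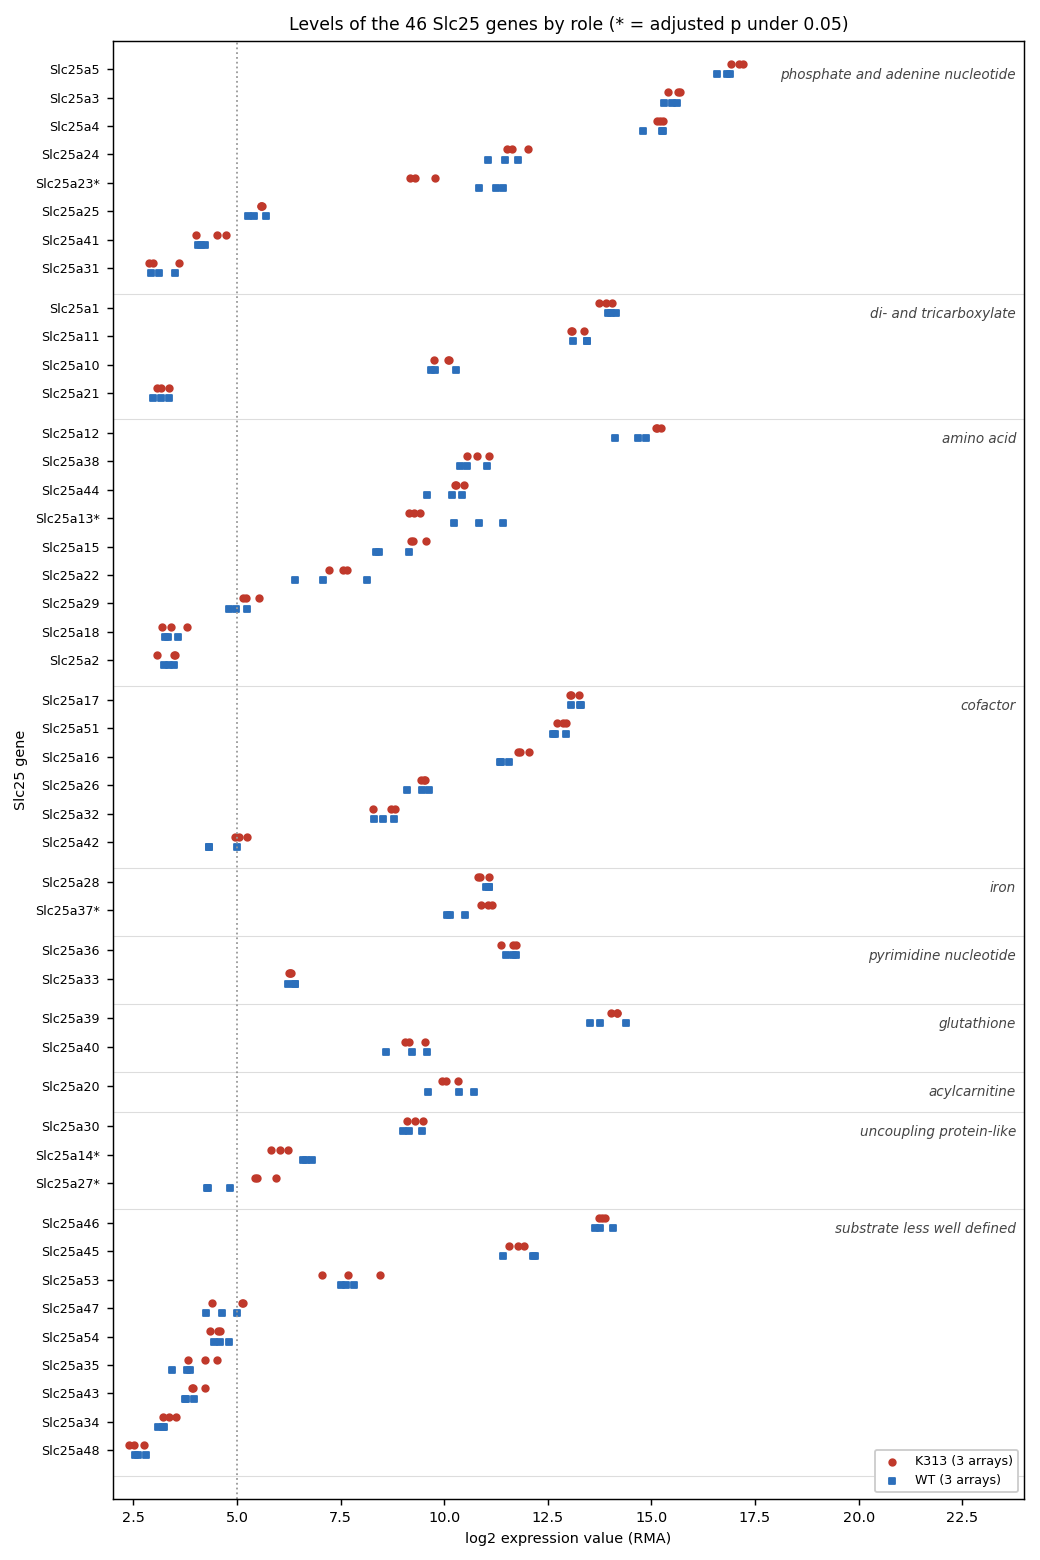
Log2 expression values of the 46 Slc25 genes in every array, in rows grouped by role, with K313 arrays as circles above and WT arrays as squares below in each row. The dotted line stands at 5 and the star marks the 5 called genes, of which Slc25a27 reads below the line in WT.

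The largest difference in the family was in Slc25a23, which exchanges ATP-Mg for phosphate under control by cytosolic calcium and so sets the adenine nucleotide pool of the matrix. It read 9.79, 9.18 and 9.30 in the K313 arrays and 11.26, 11.43 and 10.83 in the WT arrays. All K313 values lay below all WT values, with means of 9.42 ± 0.32 in K313 and 11.17 ± 0.31 in WT (SD, n = 3 each). The gene fell by 1.75 on the log2 scale (SE 0.21, a 3.36-fold lower level, adjusted p = 0.000277). The other calcium-regulated members of this branch did not pass the threshold. Slc25a24 read 11.72 ± 0.27 in K313 and 11.43 ± 0.36 in WT, a difference of 0.29 ± 0.21 (adjusted p = 0.562), and Slc25a25 differed by 0.11 ± 0.16 at levels near 5.5. Slc25a41, a relative without the calcium-binding domain and the next measured gene beside Slc25a23 on chromosome 17, was near background in both groups (4.42 in K313, 4.14 in WT). Of the 8 phosphate and adenine nucleotide carriers, 1 was lower, 0 were higher and 7 did not pass (at an unadjusted p under 0.05, 0 higher and 1 lower).

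Slc25a13 and Slc25a12 are the aspartate/glutamate carriers, citrin and aralar, which export aspartate from the matrix as a step of the malate-aspartate shuttle. Slc25a13 read 9.26, 9.42 and 9.15 in K313 and 10.23, 10.84 and 11.42 in WT. The K313 arrays were close together and all below the WT arrays, which spread over more than 1 log2 unit. The gene fell by 1.55 on the log2 scale (SE 0.26, 2.93-fold lower, adjusted p = 0.00268), and by 1.26 without WT replicate 3, where the call held (adjusted p = 0.00616). Slc25a12 read 15.24, 15.10 and 15.14 in K313 and 14.12, 14.67 and 14.86 in WT. Here all K313 values lay above all WT values, but the difference of 0.61 ± 0.20 was not called (adjusted p = 0.104; 95% interval 0.17 to 1.05 before adjustment), although it passed when the variance prior followed the mean level (adjusted p = 0.0407).

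The log2 value of Slc25a13 minus that of Slc25a12, taken within each array, was -5.88 ± 0.18 in K313 and -3.72 ± 0.24 in WT (SD, n = 3 each), a shift of -2.16. The groups did not overlap, and the two-sided exact permutation test gave p = 0.1, the smallest that 3 against 3 arrays can give. The same was computed for 8 pairs of related carriers, chosen after the values were seen. Slc25a23 minus Slc25a24 shifted by -2.04, Slc25a23 minus Slc25a25 by -1.86, Slc25a37 minus Slc25a28 by 0.92 and Slc25a14 minus Slc25a30 by -0.75, each with groups apart and the same exact p of 0.1 (adjusted over the 8 pairs, 0.16). Slc25a5 minus Slc25a4 shifted by 0.23, Slc25a39 minus Slc25a40 by 0.13 and Slc25a36 minus Slc25a33 by 0.01, each with overlapping groups (exact p = 0.2, 0.8 and 0.9). Each pair with groups apart holds a called carrier and the other pairs hold none, so these shifts are not separate from the calls. A test that cannot go under 0.1 could not decide on them.

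**Figure D3:**
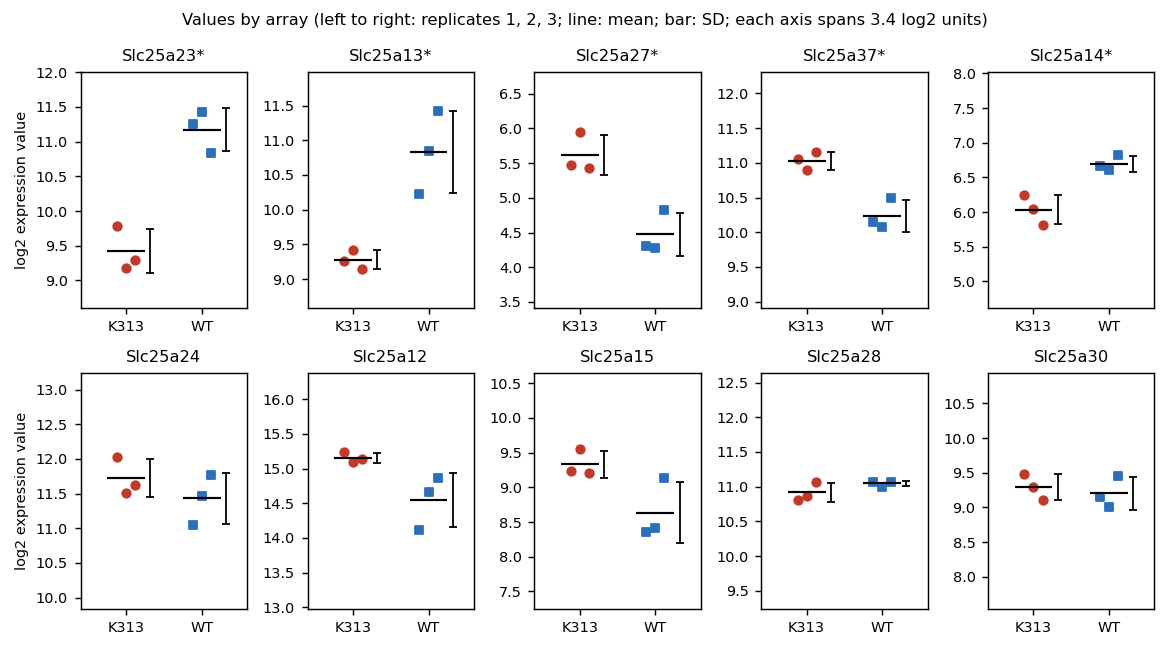
Log2 expression values by array for the 5 called carriers (top row, starred) and for 5 carriers that did not pass (bottom row, with 4 relatives of called carriers and the ornithine carrier Slc25a15), K313 left and WT right. Lines are means, bars are SD (n = 3), and K313 and WT points are apart in each top panel.

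The other members of the malate-aspartate shuttle were read beside these carriers. Got1, the cytosolic aspartate aminotransferase, was higher in K313, at 10.91, 11.43 and 11.01 against 10.15, 9.38 and 9.80 in WT. Its groups did not overlap, and it rose by 1.34 ± 0.22 (adjusted p = 0.00248). The mitochondrial enzyme Got2 differed by 0.54 ± 0.17 and was not called (adjusted p = 0.0929). The malate dehydrogenases Mdh1 (0.02 ± 0.17) and Mdh2 (0.04 ± 0.16) and the oxoglutarate/malate carrier Slc25a11 (-0.16 ± 0.17, 95% interval -0.53 to 0.21) did not pass. Of 17 measured genes of the citric acid cycle and this shuttle, Got1 alone was called.

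Among the remaining amino acid carriers the ornithine carrier Slc25a15, which brings ornithine into the matrix, read 9.24, 9.55 and 9.20 in K313 and 8.35, 8.42 and 9.14 in WT. WT replicate 3 sat just under the K313 arrays. The difference of 0.69 ± 0.22 was not called (adjusted p = 0.096), and without WT replicate 3 it was 0.95 and passed (adjusted p = 0.0133). Slc25a38, the glycine carrier, read 10.80 ± 0.28 in K313 and 10.66 ± 0.34 in WT (0.15 ± 0.21). Slc25a44, which carries branched-chain amino acids, differed by 0.27 ± 0.21 and the glutamate carrier Slc25a22 by 0.28 ± 0.35, with Slc25a22 spread from 6.40 to 8.13 in WT. The basic amino acid carrier Slc25a29 was near 5 in both groups (0.30 ± 0.18). The second ornithine carrier Slc25a2 and the second glutamate carrier Slc25a18 were near background, at 3.35 and 3.47 in K313 and 3.36 and 3.39 in WT. Of 9 amino acid carriers 1 was lower and 8 did not pass. From the lists of related pathways, spermine synthase, Sms, was the only call among 10 ornithine, proline and polyamine genes (-0.62 ± 0.15, adjusted p = 0.0310). That call was lost in each of the 6 fits without 1 array.

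Slc25a37, mitoferrin 1, imports iron into mitochondria and is the form of erythroid cells. It read 11.05, 10.89 and 11.15 in the K313 arrays and 10.14, 10.07 and 10.50 in the WT arrays. All K313 values lay above all WT values, and the gene rose by 0.79 ± 0.17 (1.73-fold, adjusted p = 0.0142). The call was lost without K313 replicate 1 (adjusted p = 0.0515), K313 replicate 3 (0.0645), WT replicate 1 (0.0521) or WT replicate 2 (0.0519), with differences of 0.71 to 0.78. Mitoferrin 2, Slc25a28, the form of most other cells, read 10.92 ± 0.14 in K313 and 11.05 ± 0.04 in WT (-0.13 ± 0.15, adjusted p = 0.755).

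Abcb10, the inner membrane transporter known to bind and stabilise mitoferrin 1, was also higher in K313. It read 9.72, 9.21 and 9.22 in K313 and 6.45, 7.38 and 7.70 in WT, with no overlap. The rise was 2.21 ± 0.29 (adjusted p = 0.000487). Of 14 measured genes of heme synthesis and mitochondrial iron, 0 were called in either direction by limma, and 0 had an unadjusted p under 0.05. They include the rate-limiting enzyme Alas1 (-0.02 ± 0.16), its erythroid form Alas2 (0.01 ± 0.17, near background in both groups), ferrochelatase, Fech, which inserts iron into the porphyrin ring (0.27 ± 0.17), and the iron-sulfur scaffold Iscu (-0.17 ± 0.18). Most called erythroid and megakaryocyte markers were lower in K313. Gata1 (-3.69 ± 0.24), Gp9 (-2.68 ± 0.18) and Itga2b (-1.09 ± 0.23, call lost without K313 replicate 1 or 3) were lower in K313. The transferrin receptor Tfrc (0.72 ± 0.19) was higher. Epor (-0.43 ± 0.19) and Pf4 (0.38 ± 0.17) were not called, and Klf1 was near background in both groups (4.02 in K313, 4.50 in WT). The Tfrc call held in 6 of 14 alternatives and was lost without K313 replicate 1 or 2 or WT replicate 1 or 2, with a common median, with array weights, with ordinary variance and with the replicate block. Their part in the Slc25a37 value was not tested.

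**Figure D4:**
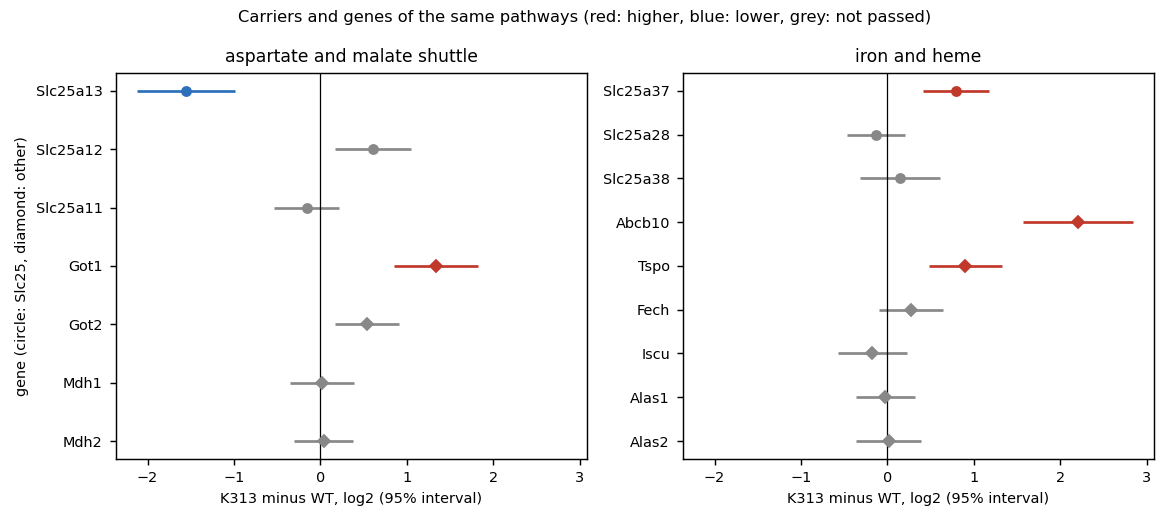
Differences (K313 minus WT, log2, unadjusted 95% intervals) of carriers and of other genes of the malate-aspartate shuttle (left) and of iron and heme (right). Slc25a13 lies at -1.55 beside Got1 at 1.34, and Slc25a37 at 0.79 beside Abcb10 at 2.21, while Mdh1, Mdh2, Alas1 and Alas2 lie within 0.04 of 0.

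The uncoupling protein-like carriers of the family went both ways. Slc25a27, a relative of the uncoupling proteins best known from brain, read 5.48, 5.95 and 5.43 in K313 and 4.31, 4.28 and 4.83 in WT. The groups did not overlap, and it rose by 1.15 ± 0.21 (2.21-fold, adjusted p = 0.00464). Its WT mean of 4.47 was near background, so the fold is a compressed estimate. Slc25a14, another brain-type relative, read 6.24, 6.05 and 5.82 in K313 and 6.66, 6.60 and 6.82 in WT, with no overlap. It fell by 0.66 on the log2 scale (SE 0.17, 1.58-fold lower, adjusted p = 0.0339). This call was lost without K313 replicate 2 (adjusted p = 0.106), K313 replicate 3 (0.135), WT replicate 1 (0.0753), WT replicate 2 (0.0547) or WT replicate 3 (0.120), when the variance prior followed the mean level (0.0638), and with the replicate number as a block (0.0717). Slc25a30, the related kidney carrier, read 9.29 ± 0.19 in K313 and 9.20 ± 0.23 in WT. The relatives that carry other symbols did not pass: Mtch2 differed by 0.11 ± 0.17, Mtch1 by -0.15 ± 0.14, and Ucp1 (0.18 ± 0.17) and Ucp3 (0.19 ± 0.16) were near background in both groups. Ucp2 was not analysed here.

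Slc25a14 is 1 of 4 X-linked members, with Slc25a5, Slc25a43 and Slc25a53. Among 800 X-linked probe sets 8.5% were called, against 8.01% of the 18723 on autosomes. The called carriers did not share a chromosome region. Slc25a23 and Slc25a27 are both on chromosome 17, Slc25a13 on chromosome 6 and Slc25a37 on chromosome 14. The nearest measured protein-coding genes, 2 on each side, held 1 call beside Slc25a27 (Cyp39a1, an oxysterol hydroxylase, higher by 1.79 ± 0.24, adjusted p = 0.000587), 1 beside Slc25a37 (Entpd4, measured by 2 probe sets, a nucleotide-hydrolysing enzyme, higher by 1.14 ± 0.16, adjusted p = 0.000754) and 1 beside Slc25a23 (Dennd1c, -0.83 ± 0.18, adjusted p = 0.0133). Called neighbours were thus 3 of 20, beside the 7.75% of all probe sets. Among uncalled neighbours Slc25a41 differed by 0.27 beside Slc25a23 and Synb by -0.45 beside Slc25a37. The 4 neighbours of Slc25a13 and the 4 of Slc25a14 were not called. The Dennd1c call was lost without K313 replicate 2 or WT replicate 1.

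No di- or tricarboxylate carrier passed the threshold. The citrate carrier Slc25a1, which exports the carbon used for fatty acid synthesis, read 13.90 ± 0.16 in K313 and 14.04 ± 0.09 in WT (-0.14 ± 0.16, 95% interval -0.49 to 0.20). The dicarboxylate carrier Slc25a10 differed by 0.06 ± 0.20, and the oxodicarboxylate carrier Slc25a21 was near background (3.20 in K313, 3.16 in WT). Of 4 members 0 were called, and 0 had an unadjusted p under 0.05. Among 9 measured genes of citrate export and fatty acid synthesis, the acetyl-CoA synthetase Acss2 (-0.87 ± 0.18) and the elongase Elovl6 (-0.79 ± 0.20) were lower and the desaturase Scd1 (1.0 ± 0.25) was higher. The Elovl6 call was lost without K313 replicate 2 or 3 or WT replicate 1 or 3, and the Scd1 call without K313 replicate 1 or 3 or WT replicate 2 or 3. The carnitine/acylcarnitine carrier Slc25a20, which brings fatty acids in for oxidation, read 10.11 ± 0.20 in K313 and 10.23 ± 0.56 in WT (-0.11 ± 0.25). The 13 measured genes of fatty acid oxidation and carnitine held 0 limma calls (1 higher and 1 lower at an unadjusted p under 0.05).

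No cofactor carrier passed the threshold, and the largest differences were in Slc25a42 and Slc25a16. Slc25a16, linked to the supply of coenzyme A, read 11.84, 11.79 and 12.04 in K313 and 11.37, 11.35 and 11.56 in WT. The groups did not overlap, and the difference was 0.46 ± 0.16 (adjusted p = 0.120). The coenzyme A carrier Slc25a42 read 5.23, 5.05 and 4.96 in K313 and 5.01, 4.32 and 4.33 in WT, with overlap, a difference of 0.53 ± 0.21 (adjusted p = 0.193) that passed without WT replicate 1 (0.755, adjusted p = 0.0284). Slc25a42 was near background in WT (mean 4.55) and just above it in K313 (5.08). Of 12 cofactor supply genes, 2 of coenzyme A synthesis were lower in K313, the pantothenate kinase Pank1 (-0.92 ± 0.18, adjusted p = 0.00774) and the decarboxylase Ppcdc (-0.78 ± 0.16, adjusted p = 0.0106, lost without K313 replicate 2). Pank2 (-0.19 ± 0.15), Pank3 (0.10 ± 0.20), Pank4 (0.08 ± 0.17) and Ppcs (-0.16 ± 0.20) of the same list were not called. The NAD carrier Slc25a51 (0.09 ± 0.16), the S-adenosylmethionine carrier Slc25a26 (0.10 ± 0.17), the folate and FAD carrier Slc25a32 (0.07 ± 0.19) and the peroxisomal carrier Slc25a17 (-0.10 ± 0.16) did not pass. Of 6 cofactor carriers 0 were called (2 higher and 0 lower at an unadjusted p under 0.05). In the serine, glycine and folate list, which Slc25a32 serves, 1 of 14 was called, the cytosolic hydroxymethyltransferase Shmt1 (0.67 ± 0.18, adjusted p = 0.0444), a call that held in 5 of 14 alternatives. It was lost without K313 replicate 1, 2 or 3 or WT replicate 1 or 2, with a common median, with array weights, with ordinary variance and with the replicate block.

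The glutathione importers Slc25a39 and Slc25a40 differed by 0.24 ± 0.21 and 0.11 ± 0.25, with WT values of Slc25a39 spread from 13.51 to 14.38 around K313 values of 14.03 to 14.18. None of the 11 glutathione genes was called (0 at an unadjusted p under 0.05). The pyrimidine nucleotide carriers Slc25a36 (-0.04 ± 0.16) and Slc25a33 (-0.06 ± 0.15) had 95% intervals from -0.40 to 0.32 and from -0.38 to 0.27. Of 9 carriers whose substrate is less well defined, 6 were near background in both groups: Slc25a34, Slc25a35, Slc25a43, Slc25a47, Slc25a48 and Slc25a54. Their differences were 0.18 ± 0.16 for Slc25a34, 0.21 ± 0.16 for Slc25a43, 0.26 ± 0.24 for the liver carrier Slc25a47, -0.09 ± 0.16 for Slc25a48 and -0.12 ± 0.16 for Slc25a54. Slc25a35 read 3.83, 4.52 and 4.24 in K313 and 3.87, 3.79 and 3.43 in WT, which overlapped (0.50 ± 0.21, adjusted p = 0.223). Slc25a46, an outer membrane protein of mitochondrial shape, read 13.81 ± 0.08 in K313 and 13.82 ± 0.23 in WT. Slc25a45 differed by -0.17 ± 0.22, and Slc25a53 by 0.08 ± 0.29 with K313 values from 7.05 to 8.45.

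Carrier proteins reach the inner membrane through a dedicated import route. Of 16 genes of the outer membrane translocase, the small intermembrane chaperones and the carrier translocase, limma called 0 (2 higher and 0 lower at an unadjusted p under 0.05), with a median difference of 0.13. Of 16 genes of mitochondrial DNA and biogenesis it called 0 (0 higher and 3 lower at an unadjusted p under 0.05). Among 18 other mitochondrial membrane transporters, the sideroflexin Sfxn5 was lower in K313 (-1.30 ± 0.16, adjusted p = 0.000259), and Abcb10 and the translocator protein Tspo (0.90 ± 0.19, adjusted p = 0.0127) were higher. The Tspo call was lost without K313 replicate 2 or 3 or WT replicate 3. Over the 12 lists together, 5 of 154 probe sets were higher and 6 lower, beside 3.77% higher and 3.97% lower over all probe sets.

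**Figure D5:**
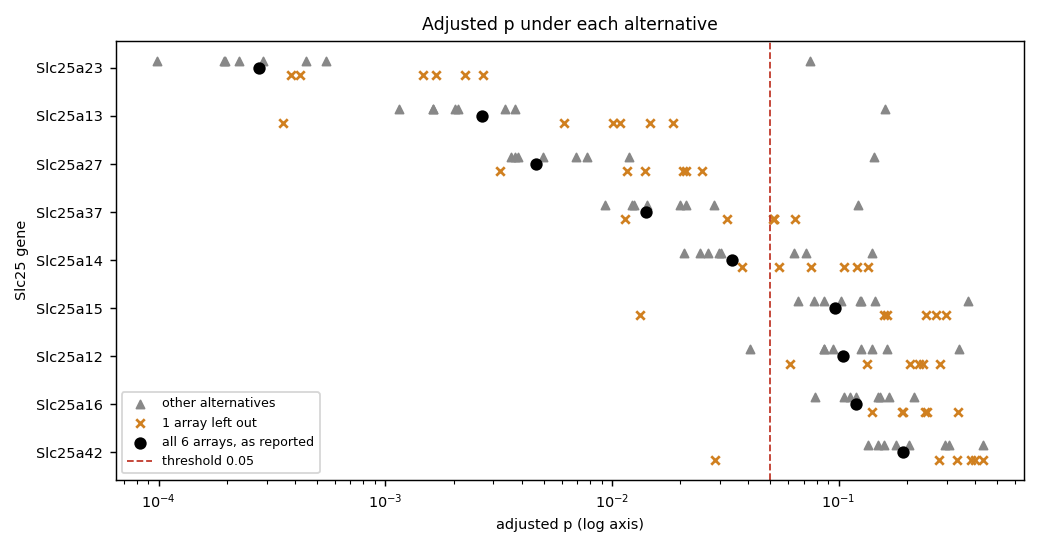
Adjusted p (log axis) of the 5 called carriers and of 4 others under all 6 arrays (black), with 1 array left out (crosses) and under the other alternatives (triangles), with the threshold of 0.05 dashed. Slc25a23, Slc25a13 and Slc25a27 stay left of the line in all 6 fits without 1 array, whereas Slc25a37 and Slc25a14 cross it, and the triangle farthest right of each called gene is ordinary variance.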

How the data were processed

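The deposited table holds log2 expression values with 2 decimals, from 2.21 to 18.59, 1 column per array and no columns of other samples. Per the submitters' processing notes, the authors made these log2 values with RMA, a method that corrects background, normalizes between arrays and summarizes probes, and with the Transcriptome Analysis Console. Versions and the build of the array design are not given in the sources used here. Because RMA gives all arrays nearly the same distribution, differences in RNA content per cell are lost, and folds of dim probe sets come out compressed. Without detection calls, a mean of at most 5 was treated as near background. Arrays have no read depth, and 3 per group limits the precision (median SE of a difference over all probe sets 0.18).

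Symbols came from the platform annotation: 19572 probe sets have 1 symbol, 0 several and 2634 none. The RefSeq table of GRCm38.p6 lists all 46 members and was used for names, chromosomes and gene order. Some genes of the lists are not reported here.

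limma 3.58.1 (R 4.3.3) was run on all 22206 probe sets with the group as the only term, lmFit and eBayes with the default prior, two-sided, with Benjamini-Hochberg adjustment. The fit was tested on simulated data. Pair tests were exact permutation tests (scipy 1.17.1). Every Slc25 member is named. Values in every array are given for the called members, the 3 with the highest mean and the 6 uncalled members with the smallest p. Up to 4 called genes per list are named by smallest p, most with the difference only. No protein table was used. The members and lists were chosen with earlier results of these data known. The labels do not say whether the same replicate numbers pair the arrays, and the main fit used no pairing (see the dependence on processing). Alternatives were quantile normalization, each array shifted to 1 median, a filter on the dimmest 30% of probe sets, a robust variance prior that follows the mean level, array weights, ordinary variance, 1-symbol probe sets, the replicate number as a block, a 1.5-fold minimum and leaving out each array.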

Additional observations from a re-analysis of the deposited data

How the results depend on the processing

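The count of called Slc25 genes, 2 higher and 3 lower in K313, was the same 5 genes with quantile normalization, a common median, removal of the lowest 30%, array weights and 1-symbol probe sets. With ordinary variance per gene, limma's fit called 0 higher and 0 lower carriers (6 at an unadjusted p under 0.05), 247 and 249 probe sets of the whole array and 0 and 1 list genes, where each variance rests on 4 degrees of freedom. When arrays were left out, 1 to 3 carriers were higher and 2 to 3 lower, list genes numbered 2 to 5 higher and 3 to 6 lower, and all probe sets 625 to 760 higher and 575 to 776 lower; the lowest count, 575, came without K313 replicate 2. Quantile normalization gave 8 higher list genes in place of 5. With the replicate block 2 carriers were higher and 2 lower, with Slc25a14 lost, and 3 list genes were higher. Residuals of same-numbered arrays correlated at -0.06, 0.03 and -0.06, and no array correlated best with its own number. The numbers thus showed no pairing in these values, but such small correlations cannot tell whether same-numbered arrays were prepared together. Differences were above 0 in 30 of 46 carriers (65.2%) against 52.2% of all probe sets, in 25 of 46 with a common median, against 39.7% of all probe sets, and in 24 of 46 without WT replicate 2, against 52.5%. The cause of these shifts was not tested. No alternative turned the sign of a called carrier. Slc25a23, Slc25a13 and Slc25a27 stayed called in 13 of 14 alternatives, Slc25a37 in 9 and Slc25a14 in 6.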
